A study of Rattus norvegicus with 10 samples.

Results

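Red blood cells carry their own RNA, and RNA taken from a whole hypothalamus includes what the cells inside its vessels hold. The probe sets of globin, heme synthesis and red cell membrane genes were therefore read in 10 male Wistar rats of 4 weeks, a C group of 5 and a P group of 5, on 1 Affymetrix rat expression array per rat. All rats received powdered feed for 2 days from 3 weeks of age. The C group then received solid chow for 8 days and the P group stayed on powder, the question of the study being what mastication changes in the hypothalamus. The rats are called Chow 1 to Chow 5 and Powder 1 to Powder 5. The members are all probe sets that the array annotation assigns to Hbb, Hba-a1, Hba1, Hba2, Alas2 or Slc4a1, alone or together with another globin. They number 7 of the 31042 probe sets that remain once 57 controls of the hybridization are set aside, 1 for Hbb, 3 shared by Hba-a1 and Hba-a2, 1 for Alas2 and 2 for Slc4a1, for 5 of the 14863 genes the array names. In the reference annotation Hba1 is an older name of both alpha genes and Hba2 one of Hba-a2, so the same 3 probe sets stand for them.

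Hemoglobin is built from alpha and beta globin chains, each holding a heme group that binds oxygen. Hbb encodes a beta chain, and Hba-a1 and Hba-a2 are neighboring, nearly identical genes of the alpha chain. Alas2 is the erythroid form of aminolevulinate synthase, the first and rate-limiting enzyme of heme synthesis, and Slc4a1 is band 3, the anion exchanger that anchors the red cell membrane to its skeleton. Mature red cells of mammals have lost their nucleus, and reticulocytes, the youngest cells in the blood, still hold RNA for these genes. In RNA of a whole tissue, fewer cells of a type and less RNA per cell cannot be told apart.

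The probe sets of Hbb, both alpha genes and Alas2 moved together over the rats, and shared control of these genes was not tested. The stretch of 250 bases before an annotated start, for Alas2 one inside the gene, is printed for each. RefSeq gives it for 4 of the 5 genes looked up by gene ID, on the rat build GRCr8, and each is written from 5′ to 3′ on the strand of the gene. Capitals mark the letters AGATAA and TGATAA (read by GATA factors), CACCC (read by the KLF family), CCAAT and TATAAA, searched on both strands.
Hbb, chr1:167663722-167663971, minus strand: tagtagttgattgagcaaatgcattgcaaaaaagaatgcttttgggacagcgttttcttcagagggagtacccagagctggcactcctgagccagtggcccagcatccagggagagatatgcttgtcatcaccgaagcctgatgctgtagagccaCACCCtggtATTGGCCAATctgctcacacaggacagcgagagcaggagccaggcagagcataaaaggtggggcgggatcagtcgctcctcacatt
Hba-a1, chr10:15842581-15842830, minus strand: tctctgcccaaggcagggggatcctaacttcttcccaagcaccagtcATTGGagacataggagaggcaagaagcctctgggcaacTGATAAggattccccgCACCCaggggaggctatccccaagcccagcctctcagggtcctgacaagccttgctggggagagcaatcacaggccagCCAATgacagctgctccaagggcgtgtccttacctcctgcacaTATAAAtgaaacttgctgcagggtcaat
Hba-a2, chr10:15829139-15829388, minus strand: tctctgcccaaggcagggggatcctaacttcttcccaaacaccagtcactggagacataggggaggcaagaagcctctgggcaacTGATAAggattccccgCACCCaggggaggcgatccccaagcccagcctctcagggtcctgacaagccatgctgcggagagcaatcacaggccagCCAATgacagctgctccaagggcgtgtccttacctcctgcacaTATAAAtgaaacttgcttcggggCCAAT
Alas2, chrX:22895200-22895449, plus strand: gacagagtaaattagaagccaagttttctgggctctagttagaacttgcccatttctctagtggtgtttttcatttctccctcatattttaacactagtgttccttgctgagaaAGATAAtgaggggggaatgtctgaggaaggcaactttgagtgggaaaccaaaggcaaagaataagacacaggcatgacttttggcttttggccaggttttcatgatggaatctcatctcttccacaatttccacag
The stretches of Hba-a1 and Hba-a2 were identical at 241 of 250 positions (96.4%), and both held TGATAA at 165 to 160 bases before the start, CACCC at 149 to 145 and TATAAA at 28 to 23. The Hbb stretch held CACCC at 95 to 91 bases before the start, followed by CCAAT on the minus strand at 86 to 82 and, next to it, on the plus strand at 81 to 77. The Alas2 stretch held AGATAA at 136 to 131 bases before a start that lies 4800 bases inside the annotated gene. Overlap between motifs was seen in 0 of these windows. Among 33469 such stretches of the rat genome, 10.3% held AGATAA, 7.97% TGATAA, 49.2% CACCC, 34.0% CCAAT and 12.9% TATAAA. Such matches describe the letters of the windows and no binding was measured.

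Over the series, the deposited log2 signals lay between 5.23 and 13.96, and arrays correlated at 0.9970 to 0.9991. The authors' summarization leaves most probe sets almost flat, with a standard deviation (SD) over the 10 rats below 0.001 in 28736 of 31042 (92.6%) and above 0.1 in 1391 (4.48%). Genes are called varying above an SD of 0.1, and the member set 1370240_x_at of the alpha globins, with an SD of 0.0953, is counted with them. The tissue label was borne out by peptide genes of the hypothalamus: Pmch, the precursor of melanin-concentrating hormone, averaged 12.87 in C rats and 13.08 in P rats, and Hcrt, the orexin precursor, 10.62 in C rats and 10.85 in P rats. Agrp, an arcuate peptide, was not matched to a probe set, and the sets of Pomc, Ghrh and Nr5a1 were flat. Differences are in log2 units, positive where C rats were higher, with the standard error (SE) from limma.

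Hbb, the beta chain gene, was higher in the C group by rank products, the test of the study. It read 12.48, 12.44, 12.68, 12.30 and 12.37 in Chow 1 to Chow 5, against 12.31, 12.47, 12.18, 12.30 and 12.36 in Powder 1 to Powder 5. Chow 3 was the highest rat and Powder 3 the lowest, and the other 8 rats of both diets overlapped. The means were 12.45 ± 0.14 in C rats and 12.32 ± 0.10 in P rats (SD, n = 5 each), a difference of 0.13 (SE 0.08) or 1.09-fold. Rank products, which rank each pair of a C and a P rat over all probe sets, gave a false discovery rate (FDR) of 0.0180. Limma gave an adjusted p of 0.9995 over all probe sets and a 95% interval of the difference from -0.05 to 0.30. The exact two-sided permutation test gave p = 0.143 (5 against 5 rats), where the smallest p this design allows is 0.00794.

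The alpha globin sets had the same highest and lowest rats and were called too. The set 1370239_at of Hba-a1 and Hba-a2 read 13.04, 12.94, 13.23, 12.92 and 12.96 in Chow 1 to Chow 5, against 12.91, 13.04, 12.80, 12.90 and 12.91 in Powder 1 to Powder 5. All 5 C rats stood above the mean of the P group in this set, while Powder 2 reached the level of Chow 1. Its difference was 0.11 (SE 0.07, rank product FDR 0.0101, exact permutation p = 0.127, 5 rats per group). The set 1388608_x_at averaged 12.23 ± 0.12 in C rats and 12.12 ± 0.07 in P rats (SD, n = 5 each). Its difference of 0.11 (SE 0.06, FDR 0.0137) had the smallest exact permutation p of the 7 members, 0.0714, still above 0.05. The set 1370240_x_at was closest to the threshold, with a difference of 0.08 (SE 0.06) and an FDR of 0.0490 (exact permutation p = 0.214, 5 rats per group). The sequences of the alpha genes are too alike for these sets to tell one gene from the other, so the 3 sets are not independent evidence.

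**Figure D1:**
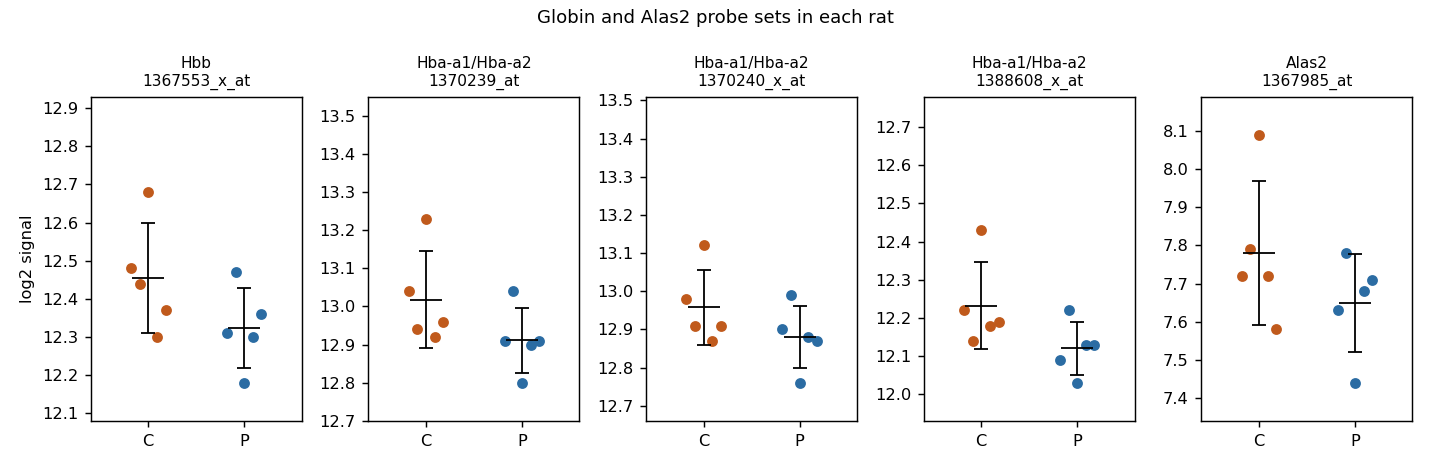
Log2 signal of the 4 globin probe sets and the Alas2 probe set in each rat, C group left and P group right; points are rats in the order of their numbers, horizontal lines group means and bars 1 SD (n = 5 each). Every panel spans the same log2 range, the groups overlap in each, and Chow 3 is the highest and Powder 3 the lowest rat in all 5.

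Alas2, the heme synthesis enzyme of red cell precursors, differed by as much as Hbb. It read 7.72, 7.79, 8.09, 7.72 and 7.58 in Chow 1 to Chow 5, against 7.63, 7.78, 7.44, 7.68 and 7.71 in Powder 1 to Powder 5. Chow 5 was lower than every rat of the P group but Powder 3, and 2 of 5 C rats lay above all P rats. The difference was 0.13 (SE 0.10) or 1.10-fold, called higher at an FDR of 0.0164, with an exact permutation p = 0.262 (5 rats per group) and a limma interval from -0.09 to 0.36. Band 3 gave no call: its sets 1369634_at and 1387656_at stayed at 6.91 and 6.52 in all 10 rats, with differences of 1.7e-05 and 0.00027.

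Of the 7 member probe sets, rank products thus called 5 higher in the C group and 0 lower, where 0.944% of all probe sets were called higher. That share rises to 20.4% (284 of 1391) among probe sets with an SD above 0.1, to which 4 of the members belong. The median difference of the members was 0.11, against -2.7e-06 over all probe sets and 0.03 over those with an SD above 0.1. Limma called 0 of the 7 members and 0 of all probe sets (smallest adjusted p = 0.986), with 0 members at an unadjusted p below 0.05 by limma, where 3.54% of all probe sets were, and 0 by the exact permutation test. Leaving out a single rat ended calls. Without Chow 3 rank products called 0 of the 7 members, and the difference of Hbb fell to 0.07, that of Alas2 to 0.06, and those of the alpha sets 1370239_at, 1388608_x_at and 1370240_x_at to 0.05, 0.06 and 0.04. Without Powder 3, the 2 sets 1370239_at and 1388608_x_at of alpha globin were called, and the differences of Alas2 and 1370240_x_at fell to 0.08 and 0.05.

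**Figure D2:**
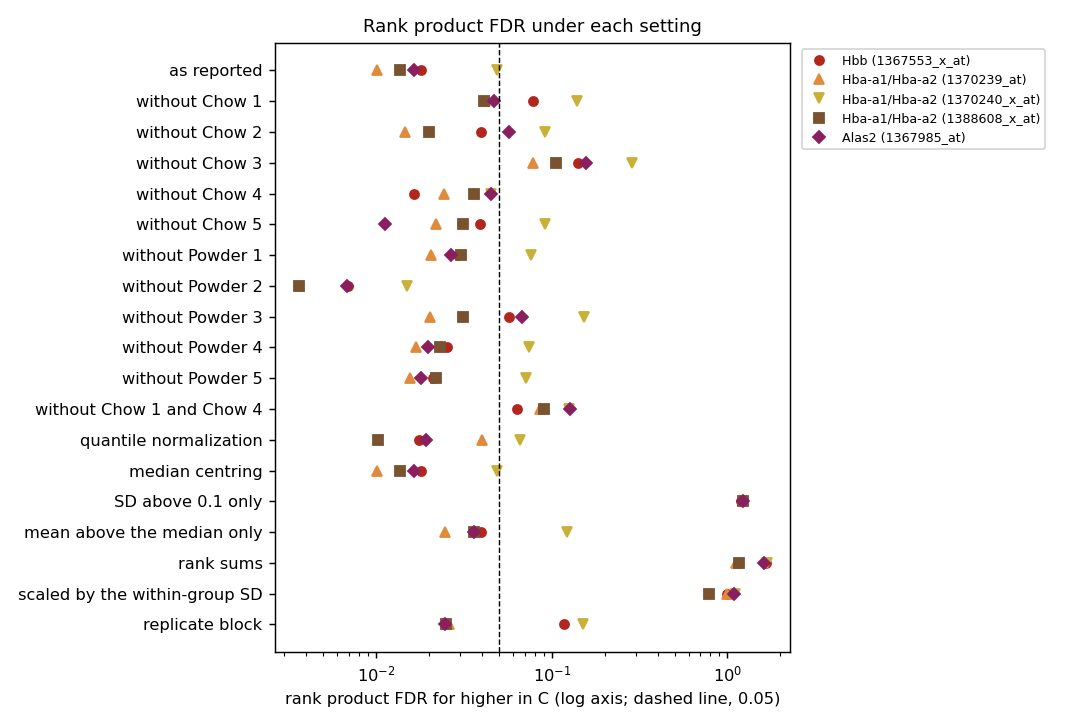
FDR of rank products for a higher signal in the C group (horizontal log axis; dashed line at 0.05) for the 5 varying member probe sets, as reported and under each alternative. All 5 lie left of the line as reported and right of it without Chow 3, with rank sums, after scaling and without Chow 1 and Chow 4; among sets with an SD above 0.1, the 4 that were tested lie right of it.

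Other adult globins repeated the pattern. Of 8 further probe sets of red cell globins, 3 varied and these 3 were called higher in the C group. Of all probe sets 0.944% were called higher, and 20.4% of those with an SD above 0.1. Limma called 0 of the 8. The 3 sets correlated with the 4 varying globin members at 0.88 to 0.98 over the rats, so they are not independent evidence. The sets 1371102_x_at and 1371245_a_at, shared by the beta genes Hbbl1 and Hbb-bs, were higher by 0.16 (SE 0.08, FDR 0.00966) and 0.12 (SE 0.10, FDR 0.0322). That of the alpha gene Hba-a3 was higher by 0.13 (SE 0.09, FDR 0.0210). Exact permutation p values were 0.0794, 0.286 and 0.230 in that order, with 5 rats per group. Chow 3 was highest and Powder 3 lowest in each. The sets of the embryonic and fetal type globins Hbe1, Hbe2, Hbg1 and Hbz and of the theta genes Hbq1b and Hbq1 were flat. Neuroglobin, the globin of neurons, differed in which rats were high: its varying set 1387208_at averaged 9.12 in C rats and 9.19 in P rats, was highest in Powder 4 and lowest in Chow 2, and was called lower (difference -0.07, SE 0.06, FDR 0.0384).

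Read per rat, the globin signal was highest in Chow 3 and lowest in Powder 3. The 4 varying globin members were averaged as deviations from the mean of each set over all rats. This globin deviation was 0.07 in Chow 1, -0.0030 in Chow 2, 0.25 in Chow 3, -0.05 in Chow 4 and -0.0066 in Chow 5. It was -0.06 in Powder 1, 0.07 in Powder 2, -0.17 in Powder 3, -0.06 in Powder 4 and -0.04 in Powder 5. Chow 3 thus held 1.34-fold the globin signal of Powder 3, on the scale of these summarized values. Within a rat the 4 sets lay 0.03 to 0.09 apart, less than the 0.42 between the extreme rats. The group medians were -0.0030 in C rats and -0.06 in P rats, closer together than the means of 0.05 and -0.05.

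**Figure D3:**
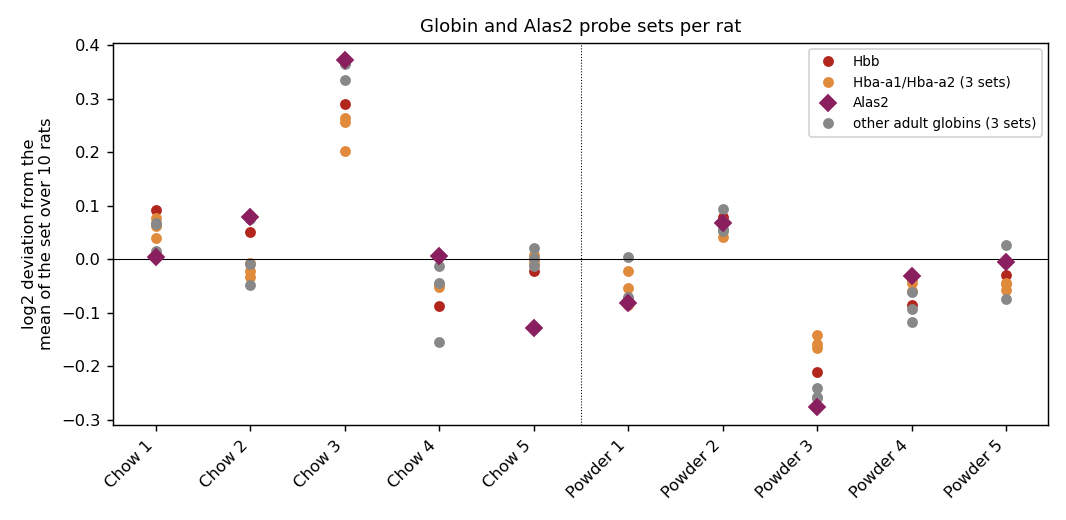
Log2 deviation of each varying globin probe set and of Alas2 from its own mean over the 10 rats, by rat, with the C group left of the dotted line. All sets stand highest in Chow 3 and lowest in Powder 3, and Alas2 leaves the mean of the 4 globin members most in Chow 5, where it is lower, and in Chow 3, where it is higher.

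Alas2 followed the globins over the rats. It correlated with Hbb at Pearson r = 0.91 (permutation p = 0.00089, adjusted 0.0053) and Spearman rho = 0.66 (permutation p = 0.043, adjusted 0.044) over 10 rats. With the alpha sets 1370239_at and 1388608_x_at r was 0.89 and 0.90 (permutation p = 0.0027 and adjusted 0.0055 for both), and rho 0.66 and 0.68 (permutation p = 0.044 and 0.035, adjusted 0.044 for both). The adjustment covers the 6 coefficients of these 3 relations, which are not independent. Without Chow 3 and Powder 3, the rats farthest from the median of each set, r was 0.56 for Hbb (exact permutation p = 0.16, 8 rats) and 0.32 and 0.31 for the alpha sets (exact permutation p = 0.45 for both). Past the threshold the relation thus rests on these 2 rats, the extremes of both measures, whose removal narrows the range of each. With 1 rat left out at a time, r for Hbb stayed between 0.80 and 0.94. For the alpha sets 1370239_at and 1388608_x_at it ranged from 0.70 to 0.92 and from 0.70 to 0.94. Both were lowest without Chow 3 (exact permutation p = 0.042 and 0.035). Deviations of Alas2 and Hbb from the mean of each diet correlated at 0.90.

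The deviation of Alas2 was 0.37 in Chow 3 and -0.28 in Powder 3, a span of 0.65 log2 units or 1.57-fold. This was wider than the 0.42 of the 4 globin members, which read at a far higher signal. The 3 other adult globin sets spanned 0.59, 0.60 and 0.62, close to Alas2, with a mean deviation of 0.36 in Chow 3 and -0.25 in Powder 3. The comparisons that follow are with the 4 members only. Alas2 stood below the globin deviation by 0.12 in Chow 5, by 0.11 in Powder 3 and by 0.06 in Chow 1. It stood above it by 0.12 in Chow 3, 0.08 in Chow 2 and 0.05 in Chow 4. Chow 1 had the second highest globin deviation and the fifth highest Alas2, and Chow 5 the fifth highest globins and the ninth highest Alas2. The balance of Alas2 to globins averaged 0.01 ± 0.10 in C rats and -0.01 ± 0.06 in P rats (SD, n = 5 each), a gap smaller than the spread within either diet.

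**Figure D4:**
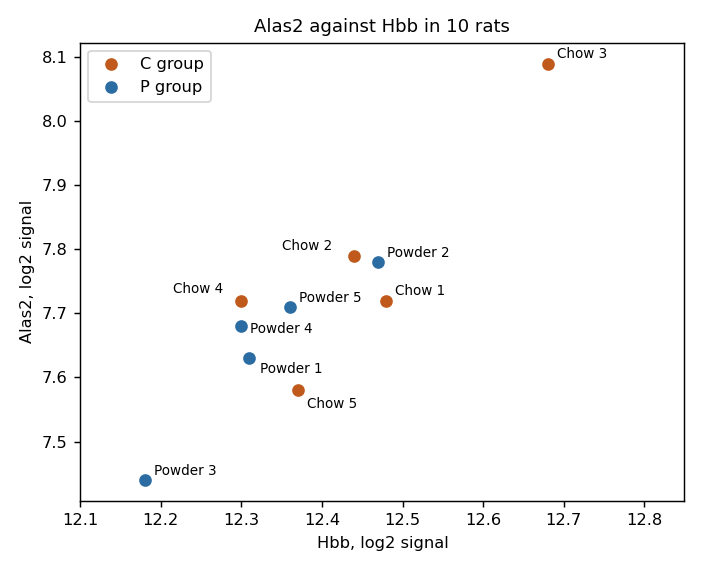
Log2 signal of Alas2 (vertical) against Hbb (horizontal) in 10 rats, C and P group. Chow 3 at 12.68 and 8.09 and Powder 3 at 12.18 and 7.44 lie at the ends of the cloud, with the 8 other rats between them.

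Read at its own fine scale, a flat band 3 set also followed Hbb. Over all 31041 other probe sets, whatever their spread, the 8 with the highest correlation to Hbb over the 10 rats were the 3 alpha globin members (0.92 to 0.97), the 3 other adult globin sets (0.94 to 0.96), Slc4a1 set 1387656_at (0.93) and Alas2 (0.91). The next 3 were flat sets close behind, each highest in Chow 3. They were Mstn, the myostatin gene, at 0.91, the unnamed 1397435_at at 0.91 and Pter at 0.90. Of 28736 probe sets with an SD below 0.001, the Slc4a1 set had the highest correlation to Hbb. Its whole range was 1.0 thousandths of a log2 unit, with Chow 3 at 0.67 thousandths above its mean and Powder 4 and Powder 3 at 0.33 and 0.31 thousandths below it. The other Slc4a1 set, 1369634_at, correlated at 0.42. These values were looked up after the flatness of the sets was known, and 576 of the flat sets (2%) reached a correlation of 0.6 or more.

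Among varying probe sets outside the globins and members, 1383 in all, none followed Hbb as closely as Alas2. Of the 10 most alike, 3 carry gene names: Kcnd3, a potassium channel of neurons, at r = 0.84, Apoc1, an apolipoprotein, at 0.82, and a set shared by the amylases Amy2a3 and Amy1 at 0.64. Rank products called 9 of the 10 higher in C rats, against 20.4% of all sets with an SD above 0.1. The 10 were picked for following Hbb, itself called higher, which favors such calls, so this count is no separate result. The exception, Apoc1, read 9.37 in Chow 3 and 9.06 in Powder 3, with group means of 9.13 in C rats and 9.12 in P rats. The highest of the 10 was 1377774_at, which carries no gene name, at 0.86. It also followed Alas2 at 0.90 and read 8.28 to 8.87 in the C group and 7.94 to 8.35 in the P group.

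Other genes of red cells and heme gave little. Of 11 matched genes of heme synthesis besides Alas2, 0 varied and 0 were called, among them Alas1, the housekeeping form of the enzyme, at 8.53 in both groups, and Fech, which inserts iron into heme, at 8.98 in both. Cpox, another enzyme of the pathway, had the widest spread of them, with an SD of 0.0917 just under the limit. It read 9.64 in Chow 5 and 9.93 in Chow 4, the extremes, and correlated with Hbb at -0.24. Of 12 genes of heme breakdown and iron handling 0 were called. Tfrc, the transferrin receptor, averaged 10.39 in C rats and 10.46 in P rats, and Hmox1, the heme oxygenase induced by free heme, 7.82 in both. Of 18 genes of red cell membrane and enzymes 0 were called, with 2 varying. Gypc, a glycophorin, read 6.63 to 7.26 in the C group and 6.60 to 7.03 in the P group and correlated with Hbb at 0.03, and Car2, a carbonic anhydrase that oligodendrocytes also make, at -0.24. The 7 genes of erythroid factors and the erythropoietin receptor, such as Gata1 and Klf1, and 16 genes of the hypoxia response, such as Vegfa, were flat and not called. The flat sets of these lists were each read within their own range of thousandths. A correlation with Hbb of 0.6 or more was reached by 1 of 10 flat genes of heme synthesis and 3 of 15 of the red cell list. They were Fech at 0.84, and Ahsp, a chaperone of alpha globin, at 0.79, Hemgn at 0.66 and Rhag, a red cell membrane protein, at 0.61. The medians of these 2 lists were -0.06 and 0.27. None of the 7 erythroid factor genes reached 0.6, with a median of -0.15 and the highest, Klf1, at 0.20. Nor did any flat gene of heme breakdown and iron or of the hypoxia response.

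Markers of other cells mostly placed the rats differently where they varied. The leukocyte, platelet, endothelial and mural cell lists each rest on 1 varying gene, and their flat sets bound no difference. The leukocyte list had 0 calls in 10 matched genes and 1 varying gene, the lysozyme Lyz2, which was 9.42 in Chow 3 and 9.49 in Powder 3. Platelet genes had 1 call in 6, Gng11, which vessel cells also express and which was highest in Chow 1 and Chow 4, while the platelet genes Ppbp, Gp9 and Itga2b were flat. Endothelial genes had 0 calls in 13, with 1 varying, Kdr, at 8.78 in Chow 3 and 8.79 in Powder 3. The sum of their log2 values ranged from 110.05 to 110.7 in the C group and 110.1 to 110.7 in the P group. As 10 of the 13 sets were flat, this sum bounds no difference in vessel content. Mural cell genes had 0 calls in 9, with 1 varying, Tagln, at 7.53 in Chow 3 and 7.68 in Powder 3. The 15 genes of leptomeninges, the membranes around the brain, were called higher in C rats without exception, where 20.4% of sets with an SD above 0.1 were. The lists were chosen with earlier results of these data known, so such counts are no separate result. The 15 genes deviated by -0.46 in Chow 3 and 0.45 in Powder 3, opposite in sign to the globins, with Chow 1 and Chow 4 highest at 0.88 and 0.70. Signs were also opposite in Chow 4 (globins -0.05). They were the same in all other rats, as in Powder 1 (-0.73, globins -0.06) and Powder 2 (0.27, globins 0.07). Correlations of the 15 genes with Hbb lay between -0.21 and 0.04. The sum of their log2 values ranged from 119.6 to 139.6 in the C group and 115.6 to 133.3 in the P group. Ttr, the transthyretin of choroid plexus, read 9.50 in Chow 3 and 8.36 in Powder 3, with 6.83 to 9.29 in the other rats. It was called higher in C rats (difference 0.43, SE 0.56, FDR 0.00176), by more than any globin, was highest in Chow 3 as the globins were, and correlated with Hbb at 0.45. It was the 1 call among 8 choroid plexus genes. Hypothalamic neuron genes had 6 of 13 called lower and 0 higher, where 0.815% of all probe sets were called lower. Among probe sets with an SD above 0.1, to which 9 of the 13 belong, that share was 14.8%. The genes called lower include Oxt, the oxytocin precursor (difference -0.25, SE 0.11, FDR 0.00091), Pmch (-0.21, SE 0.11, FDR 0.00214) and Hcrt (-0.23, SE 0.18, FDR 0.00309). Pmch read 12.44 in Chow 1, against 12.79 to 13.15 in the other rats, and Hcrt 9.94 in Chow 1, against 10.57 to 10.96. Oxt, Pmch and Hcrt correlated with Hbb at -0.04, -0.32 and -0.12. The part of attached membranes, choroid plexus, blood vessels or the share of neurons in the globin differences was not tested.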

How the data were processed

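Hypothalamic RNA of 10 rats was hybridized to 1 array each. Values are used as deposited, on a log2 scale, after the authors had summarized the scans in R 2.7.2 by FARMS (factor analysis for robust microarray summarization). This method pools the probes of a set and shrinks a set towards a constant where they share no signal, so a flat set bounds no biological difference. Arrays carry no read depth, so their number limits the precision. Columns and rats were matched by sample identifier, and 0 columns stayed unmapped.

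Gene names are those of the array annotation, and of 31099 deposited sets 57 controls were left out. Rank products were written in Python 3.11.15 (numpy 2.4.6, pandas 2.3.3, scipy 1.17.1): each of the 25 combinations of a rat from each diet gave a ranking of log2 differences, compared with 100 permutations, and called at an FDR below 0.05 in each direction. Diet was fitted with limma 3.58.1 (R 4.3.3) and Benjamini-Hochberg adjustment over 31042 sets. Both were tested on simulated data, in which all sets had equal spread and the changes were larger than those of the members. That setting does not match the mostly flat sets of this series. Exact permutation tests used all 252 assignments, and correlation tests 100000 resamples, or all permutations below 10 rats. Drawings used matplotlib 3.10.9. The genes of a list were read from their set of highest mean. Besides all members, the named genes were the 10 varying sets (SD above 0.1) most correlated with Hbb, and genes of the lists that were called or are defining markers. Members and lists were chosen with earlier results of these data known. Alternatives were other normalizations, filters, rank statistics and thresholds, limma options, unlogged means, a replicate block, and omission of single rats or of Chow 1 together with Chow 4.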

Additional observations from a re-analysis of the deposited data

Results flagged for a closer look

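In 3 of 20 groups of 5 rats examined over the members and the other adult globins, 1 rat lay far from the other 4, where about 1 in 20 would by chance. All 3 were Chow 3 in the C group. The gap to the nearest rat, as a share of the range of the group, was 0.750 in the Hba-a1 and Hba-a2 set 1388608_x_at, 0.777 in the Hbbl1 and Hbb-bs set 1371102_x_at and 0.721 in the Hba-a3 set 1375519_at, against a limit of 0.71 for 5 samples. The 3 sets measure related chains in the same rats and are not independent.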

How the results depend on the processing

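All 75 alternative values of the diet difference of the 5 varying members stayed positive, and 3 of them, all of alpha globin sets with Chow 2 or Powder 2 left out, had an exact permutation p below 0.05. The count of members called higher by rank products, 5 as reported, ranged from 0 to 5 with 1 rat left out. It was 0 without Chow 3, 2 without Powder 3 and 3 without Chow 1 or without Chow 2. It was 0 without Chow 1 and Chow 4 together, with rank sums, after scaling by the within-group SD, at a threshold of 0.01, with limma in place of rank products and among the 4 members with an SD above 0.1, where 1 of 1391 probe sets was called higher at all. Over all probe sets, 293 were called higher as reported, 114 to 352 with 1 rat left out, 46 without Chow 1 and Chow 4, 36 after scaling and 1 with rank sums. The cause of these losses was not tested. Limma called 0 members under every alternative. The numbers of the rats do not pair them, as deviations of same-numbered rats correlated over 0.1 in 2 of 5 pairs and 0 rats correlated best with their own number, and the replicate block left 3 calls. Left out 1 rat at a time, the correlation of Alas2 with Hbb lay between 0.80 and 0.94. With the alpha sets 1370239_at and 1388608_x_at it fell as low as 0.70, without Chow 3. With 5 rats per group, limma's intervals for the varying members all include 0.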
